A study of Caenorhabditis elegans with 4 samples.

Results

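Called binding regions (peaks) of the *Caenorhabditis elegans* nuclear hormone receptor NHR-21 on the arms of chromosomes II, III, IV and V are described here. A peak belonged to an arm when its midpoint lay outside the central 50% of its chromosome, so membership used position only and no measured value. Of the 1137 peaks of the combined list, 262 met this rule, and another 509 lay in the centres of the same 4 chromosomes. The arms of I and the X chromosome were not included. The central 50% ran from 3756539 to 11269618 on II, from 3429950 to 10289851 on III, from 4319702 to 12959106 on IV and from 5193671 to 15581012 on V. All positions are on WormBase WS180 and counted from 1. The largest peak end in any list stood in for each chromosome's length. Each right arm thus ends at a called region by construction, while left arms start at position 1. A peak-free tip therefore counts in the length of left arms only.

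Chromatin immunoprecipitation followed by sequencing (ChIP-seq) was done on whole L2 hermaphrodites of strain OP361, grown at 20 °C, with an antibody against GFP. All libraries share the same genotype, with the mutation unc119(ed3) and the transgene wgIs361. The transgene encodes nhr-21 fused to TY1-GFP-3xFLAG, with unc119 as its marker. It was introduced by bombardment, and the strain was then outcrossed 3 times. The labels do not give its copy number, nor the state of the strain's own nhr-21 gene. The labels give 2 ChIP and 2 Input libraries, of which the Inputs were not analysed here. Titles and source names were followed, although the free-text descriptions put the antibody under the Inputs and call the ChIP libraries input. It is not stated if the replicates were separate cultures. Binding is averaged over all cells of the larvae.

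Nuclear hormone receptors are transcription factors that bind DNA through a zinc-finger domain, many of them under control of a small lipophilic ligand, and the family is greatly expanded in nematodes. The autosomes of *C. elegans* are divided into a gene-dense centre and 2 arms. The arms recombine more, hold more repeats and fewer conserved genes, and carry more of the heterochromatin marks of histone H3 lysine 9, and they contact the nuclear envelope.

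Peaks were about as wide and as strong on the arms as in the centres, but they were spaced more thinly. The arms held 7.84 peaks per Mb (exact 95% Poisson interval 6.92 to 8.85) and the centres 15.2 per Mb (13.9 to 16.6). Arms and centres have equal length here, 33.4 Mb each, and the arms held 34.0% of the 771 peaks (95% Wilson interval 30.7 to 37.4%). In replicate 1 the arms held 103 regions and the centres 179, an arm share of 36.5%. In replicate 2 they held 143 and 307, an arm share of 31.8%. All intervals cover counting error only and take peaks as independent, which neighbouring peaks are not.

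The share of peaks on the arms was highest on IV and lowest on V in the combined list. It was 40.8% on IV (34.8 to 47.1%), 34.8% on II (27.8 to 42.5%), 30.2% on III (24.0 to 37.2%) and 28.3% on V (22.4 to 35.04%). IV also had the highest arm share in both replicate lists, at 49.4% in replicate 1 and 40.4% in replicate 2. On II the arm share was lower in the replicate lists, with 5 arm and 19 centre regions in replicate 1 and 15 arm and 49 centre regions in replicate 2.

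Left and right arms were compared on each chromosome, and they were most unequal on II. The left arm of II held 9 peaks and the right arm 46, or 2.4 per Mb (1.1 to 4.55) and 12.2 per Mb (8.97 to 16.3). On III the left arm had 23 peaks and the right arm 32, and on IV they had 45 and 53. Chromosome V went the other way, with 35 peaks on the left arm and 19 on the right. The left share of arm peaks was 16.4% on II (8.86 to 28.3%), 41.8% on III (29.7 to 55.0%), 45.9% on IV (36.4 to 55.8%) and 64.8% on V (51.5 to 76.2%). On III and IV these intervals include an even split.

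The replicates had the same direction on every chromosome. Replicate 1 called 1 region on the left and 4 on the right arm of II, 11 and 20 on III, 18 and 24 on IV, and 16 and 9 on V. Replicate 2 called 2 and 13 on II, 14 and 21 on III, 27 and 36 on IV, and 19 and 11 on V. Replicate lists are short on II, so in them the contrast there rests on few regions. No arm region of either replicate lay outside the combined list, so the lists are not separate sets of regions. Summed over the 4 chromosomes, the left arms held 112 peaks and the right arms 150. Without II the sums were nearly equal, with a difference of -0.48% of the arm peaks. Left minus right was then -9 peaks on III, -8 on IV and 16 on V, which nearly cancel. Without V the difference was -26.0% (-38.5 to -12.5), so the summed difference depends on which chromosomes are counted.

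**Figure D1:**
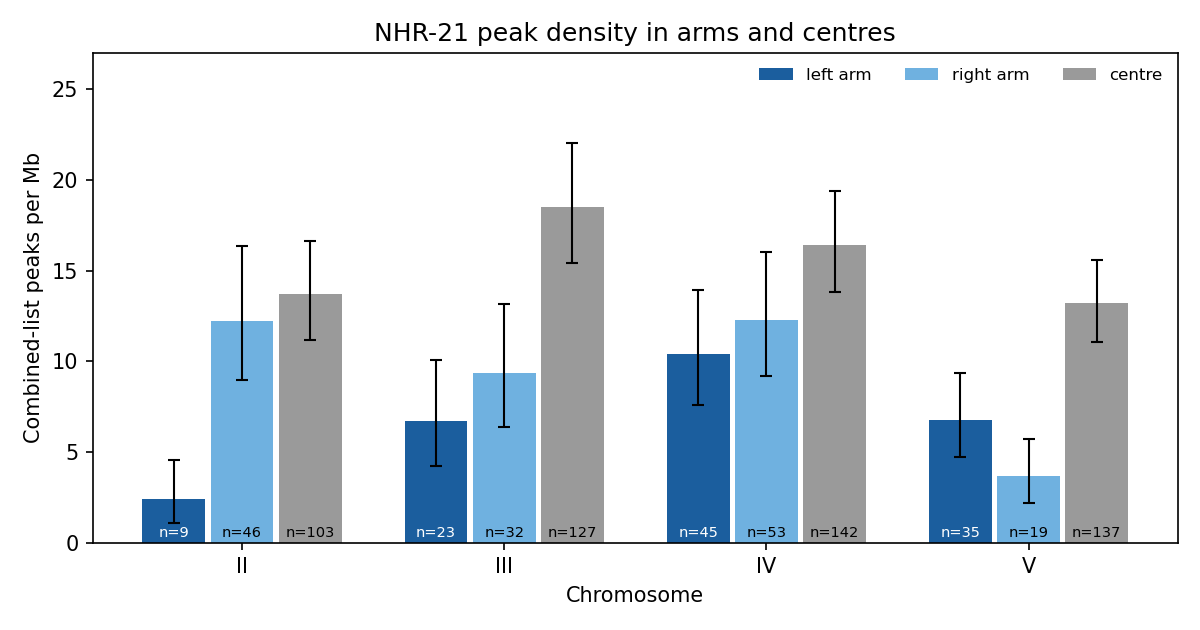
Peaks of the combined list per Mb (y axis) in the left arm, right arm and centre of chromosomes II to V (x axis), with exact 95% Poisson intervals and the number of peaks in each bar. The left arm of II, with 9 peaks, is the least dense of the 8 arms, and the right arm of II and both arms of IV lie above 10 per Mb.

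Pooled over all 8 arms, density changed little from the chromosome ends inward and was highest next to the centre. Each arm was divided into 5 stretches of equal length. From the end inward they held 48, 45, 47, 50 and 72 peaks over all 8 arms, or 7.19, 6.74, 7.04, 7.49 and 10.8 per Mb. The innermost stretch had an interval of 8.43 to 13.6 per Mb, below the 13.9 to 16.6 per Mb of the centres. Of its 72 peaks, 16 lay on the right arm of II and 15 on the right arm of IV. Without the right arm of II the innermost stretch still had the most peaks, 56 at 9.45 per Mb (7.14 to 12.3), against 37 to 45 in the other stretches. With and without this arm, the interval of the innermost stretch overlaps that of every other stretch. Over all 8 arms the upper bounds of the other stretches were 9.01 to 9.87 per Mb.

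Single arms did not all follow that profile. The left arm of II had no peak in the third and the fifth stretch from the end, and the left arm of V had 1 in the third. On the left arm of IV the outermost and innermost stretches held 12 peaks each, with 4, 8 and 9 between them. On the right arm of III, 10 of 32 peaks lay in the innermost stretch and 9 in the second stretch from the end. Only on the right arms of II, III and IV did the innermost stretch alone hold the most peaks. The left arm of III had 5 peaks in the innermost stretch and 8 in the third from the end. The left arm of V had 10 in the innermost and 11 in the fourth, and the right arm of V had 4 in the innermost and 6 in the second.

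**Figure D2:**
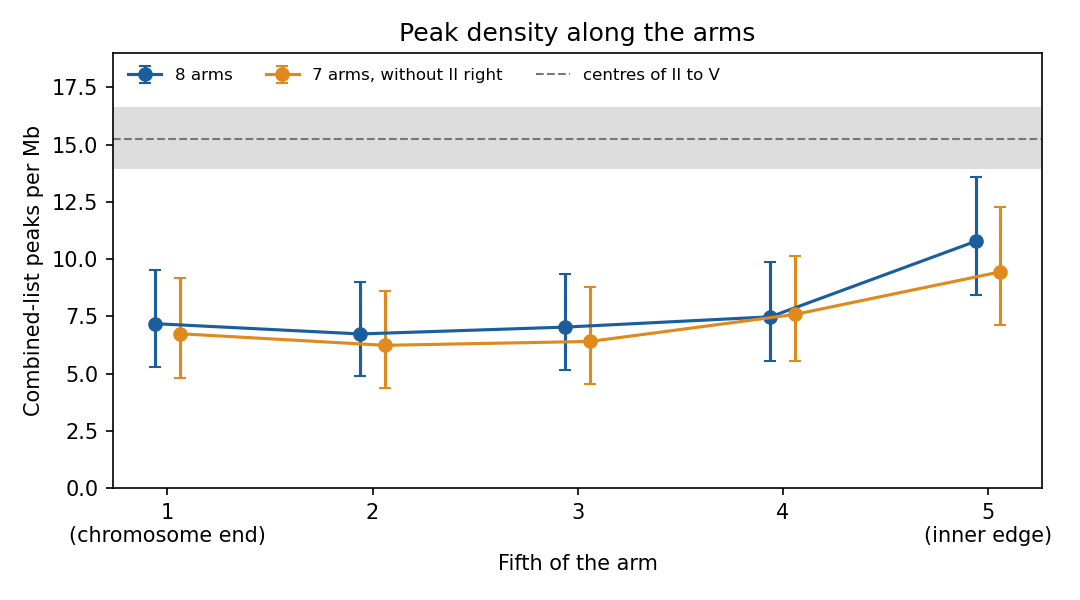
Peaks per Mb (y axis) in 5 equal stretches of the arms from the chromosome end to the inner edge (x axis), for all 8 arms and for the 7 arms without the right arm of II, with exact 95% Poisson intervals. The dashed line and grey band give the centres of II to V with their interval, 15.2 per Mb (13.9 to 16.6), and the innermost stretch lies closest to it at 10.8 per Mb.

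The strongest arm peak was V 723660 to 728347 on the left arm of V. Strength here means the rank of the q value given by the authors' peak caller PeakSeq within a list, and not a level of occupancy. Its combined q was 2.45e-215, with 1.55e-91 for replicate 1 and 7.55e-126 for replicate 2. It was the 2nd strongest of all 1137 peaks, the 3rd of replicate 1 and the 4th of replicate 2. It opens a run of 4 peaks that spans 8.16 kb. Its neighbour 728687 to 729814 had q = 1.65e-09 and 730164 to 730706 had q = 7.5e-12, both found in replicate 2 alone, and 731189 to 731819 had q = 6.39e-18 and was found in both.

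The right arm of IV held 4 of the 10 strongest arm peaks. They were IV 16167145 to 16171690 (q = 4.91e-103), 14032551 to 14034807 (q = 5.04e-102), 14609787 to 14614713 (q = 2.79e-80) and 14984406 to 14987064 (q = 7.94e-70). The first of them was called as 2 regions in each replicate, the better at q = 3.96e-24 in replicate 1 and 7.4e-37 in replicate 2, which put it 47th and 42nd there although it was 11th in the combined list. The second stood at similar ranks in all lists, 12th in the combined list, 19th in replicate 1 (q = 8.98e-43) and 13th in replicate 2 (q = 7.71e-69).

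The remaining 5 of the 10 strongest were spread over 5 arms. On the right arm of II, 11841454 to 11846770 had q = 1.58e-121 and ranked 7th, but it was 26th in replicate 1 (q = 4.25e-34) and 35th in replicate 2 (q = 1.65e-42). On III, 832422 to 836384 on the left arm had q = 4.45e-60 and 13462773 to 13465492 on the right arm had q = 6.85e-55. On V, 3979695 to 3981614 on the left arm had q = 4.25e-57 and 19609435 to 19612559 on the right arm had q = 8.92e-54. All of the 10 were found in both replicates.

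The best peak of the remaining arms was weaker. On the left arm of IV it was 4235394 to 4237424 (q = 1.06e-53, rank 53), with q = 7.94e-24 in replicate 1 and 4.14e-32 in replicate 2. On the left arm of II it was 21608 to 25361 (q = 8.94e-33, rank 114), with q = 7.07e-07 in replicate 1 and 3.53e-14 in replicate 2. This peak was also the closest to the left end of II.

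Over all 262 peaks, strength on the arms was close to that in the centres. The median −log10 q was 8.25 on the arms (interquartile range 5.52 to 13.8) and 7.71 in the centres (5.42 to 14.6), a difference of 0.54 with a 95% interval of -0.99 to 1.65. At q of 1e-10 or below there were 95 arm peaks, or 36.3%, and 203 centre peaks, or 39.9%, where the whole combined list had 39.2%. Between the arms the median −log10 q ran from 6.38 on the left arm of V to 9.38 on the right arm of IV. The left arm of V thus held both the strongest peak and the lowest median, and 13 of its 35 peaks had q of 1e-10 or below.

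**Figure D3:**
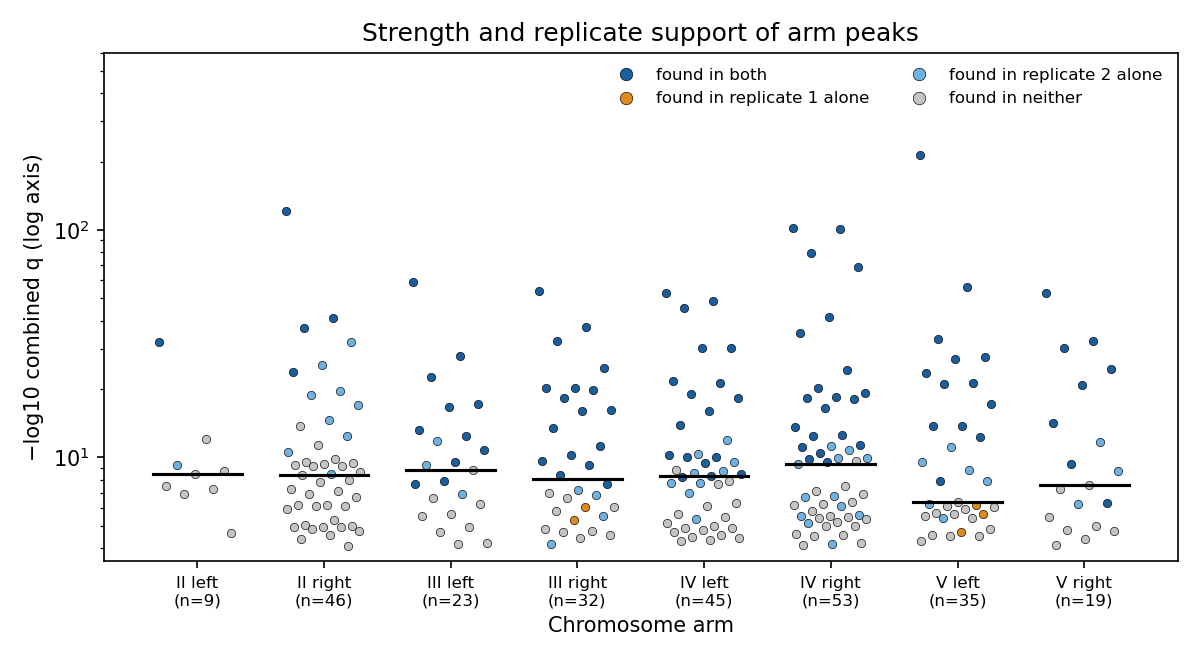
−log10 of the combined q value (y axis, log scale) of each of the 262 arm peaks by arm (x axis), with colours for the replicates in which a peak was found and a black line at each arm's median. The strongest point of every arm is dark (found in both), and on the right arm of II 33 of 46 points are grey (neither).

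Widths on the arms were close to those in the centres. The median was 665 bp on the arms (interquartile range 434 to 1254 bp) and 666 bp in the centres (449 to 1275 bp), a difference of -1 bp with a 95% interval of -101 to 127 bp. By arm the medians lay between 586 bp on the left arm of III and 845 bp on the left arm of V. Peaks wider than 5 kb numbered 7 on the arms, or 2.67%, and 9 in the centres, or 1.77%, against 1.67% of the whole list.

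The widest arm peaks were not the strongest. II 1232846 to 1241917 was 9072 bp wide with q = 3.5e-09, and V 20661775 to 20670724 was 8950 bp wide with q = 5.54e-08. Neither was found in a replicate. The third widest, V 16778494 to 16785342, was 6849 bp wide (q = 3.31e-25) and was found in both, as 2 regions in replicate 2. Next came III 12612225 to 12618172 (5948 bp, q = 2.1e-25), II 11841454 to 11846770 (5317 bp) and IV 14091924 to 14096947 (5024 bp, q = 3.39e-19), all found in both replicates. III 345423 to 350441 (5019 bp, q = 5.06e-10) was found in replicate 2 alone.

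Replicate support was then compared, where a peak counted as found when it shared at least 1 bp with a region of that replicate. At least 1 replicate held 145 of the 262 arm peaks, or 55.3% (49.3 to 61.2%), against 59.1% of the centre peaks and 57.9% of the whole combined list. Both replicates found 93 arm peaks, or 35.5% (29.95 to 41.5%), against 30.5% in the centres and 32.1% of the whole list. Replicate 2 alone found 47, or 17.9%, against 26.5% in the centres and 23.8% of the whole list. Replicate 1 alone found 5, or 1.91%, against 2.16% in the centres and 1.93% of the whole list. The other 117, or 44.7%, were found in neither, against 40.9% in the centres and 42.1% of the whole list.

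Set side by side, replicate 1 held a larger share of the arm peaks than of the centre peaks, and replicate 2 a smaller one. Replicate 1 found 98 arm peaks, or 37.4%, and 166 centre peaks, or 32.6%, where the whole list had 34.0%. Replicate 2 found 140 arm peaks, or 53.4%, and 290 centre peaks, or 57.0%, where the whole list had 55.9%. The arm minus centre difference was 4.79 percentage points in replicate 1 (95% Newcombe interval -2.23 to 12.0) and -3.54 in replicate 2 (-10.9 to 3.82), so neither interval excludes 0. Without II the differences were 8.23 points in replicate 1 (0.053 to 16.4) and 0.29 in replicate 2 (-7.94 to 8.32). For the share found in replicate 2 alone the difference was -8.58 points (-14.4 to -2.31), and -7.99 points without II.

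The replicate lists were also compared without the combined list. Of the 143 arm regions of replicate 2, 96 or 67.1% were also called in replicate 1, against 165 of 307 or 53.7% of its centre regions, a difference of 13.4 points (3.63 to 22.5). It was 14.1 points without II. On III 28 of 35 arm regions were shared, or 80%, against 62.7% in the centre, and on IV 42 of 63, or 66.7%, against 44.1% (difference 22.6 points, 6.65 to 36.8). On V the shares were 70% on the arms and 65.6% in the centre, and on II 33.3% and 36.7%. Taken the other way, replicate 1 regions were nearly all found in replicate 2, at 95.1% on the arms and 93.9% in the centres. Arm regions of replicate 2 had a higher median −log10 q than its centre regions, 8.35 against 7.44. These shares of regions were not compared within groups of q. The share over all 662 regions of replicate 2, with I and X, is not given here. Read depth is unknown, and the parts of q and of depth in the difference of 13.4 points were not tested.

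Support depended strongly on q, so the peaks were also set side by side within 10 groups of equal size over the whole combined list, from the strongest to the weakest. In the 3 strongest groups 72 of 73 arm peaks were found in a replicate, or 98.6%, and 149 of 156 centre peaks, or 95.5%. In the next 3 groups the arms had 55 of 87, or 63.2% (52.7 to 72.6%), and the centres 112 of 146, or 76.7% (69.2 to 82.8%). In the last 4 groups the shares were 17.6% and 19.3%. The gap in the middle groups was not seen without II, where the arms had 51 of 62, or 82.3%, and the centres 98 of 119, or 82.4%.

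At the centres' rates within each group, replicate 1 would have found 84.6 arm peaks and replicate 2 153.5. The observed counts were 98 and 140. Without II the observed counts were 93 and 125, against 79.0 and 128.4 at the centres' rates. The observed arm count of replicate 1 was thus above the count at the centres' rates with and without II, and that of replicate 2 was below it. On II alone both were below, at 5 against 6.6 in replicate 1 and 15 against 23.1 in replicate 2. These counts are a description and were not tested.

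**Figure D4:**
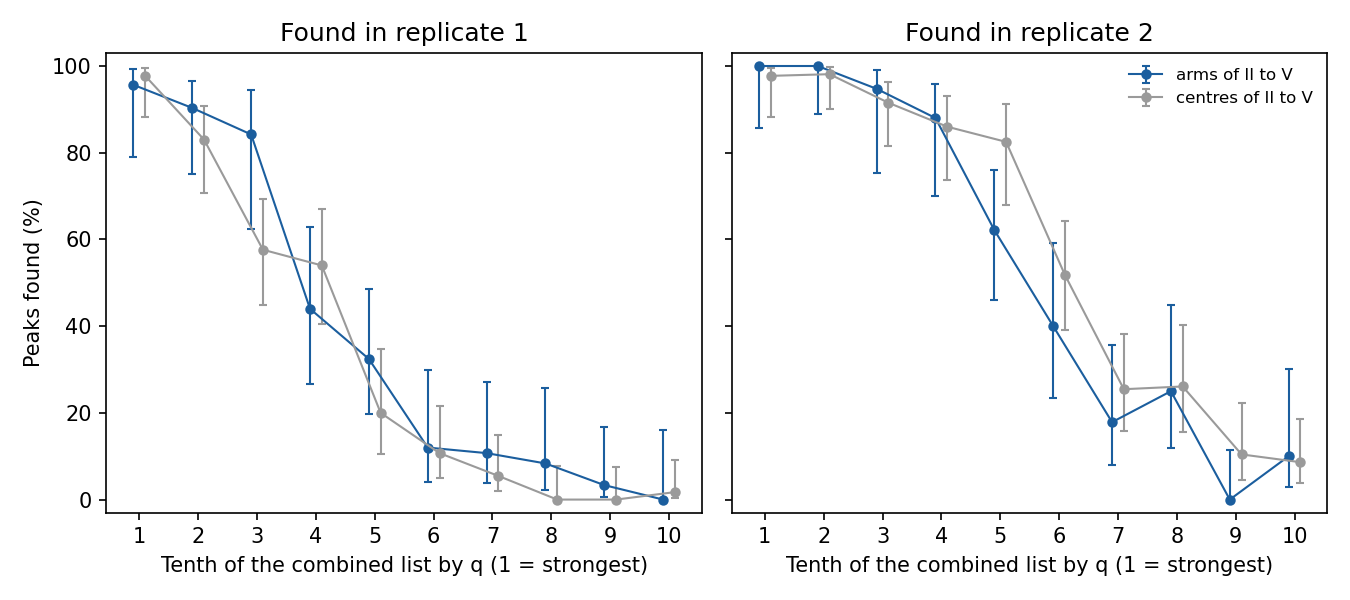
Share of combined-list peaks found in replicate 1 (left) and replicate 2 (right) on the y axis, for arms and centres of II to V, in 10 groups by q value from the strongest to the weakest (x axis), with 95% Wilson intervals. The order of arms and centres changes between groups: replicate 1 found 84.2% of arm and 57.6% of centre peaks in group 3 but 44% and 54% in group 4, and replicate 2 found 88% and 86% in group 4 but 62.2% and 82.5% in group 5.

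Chromosome II had the lowest replicate support, and its arms held 40 of the 117 arm peaks found in neither replicate. On its arms 15 of 55 were found in a replicate, or 27.3% (17.3 to 40.2%), against 47 of 103 or 45.6% in its own centre, a difference of -18.4 points (-32.2 to -2.41). The arm shares were 67.3% on III, 61.2% on IV and 61.1% on V. Leaving out II gave 62.8% for the arms and 62.6% for the centres, a difference of 0.24 points (-7.92 to 8.16). Replicate 1 found 5 of the 55 arm peaks of II, and all 5 were also in replicate 2.

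With q at most 1e-10, 92 of 95 arm peaks or 96.8% (91.1 to 98.9%) were found in a replicate, close to the 192 of 203 or 94.6% (90.6 to 96.9%) of the centres. All 3 arm peaks that were not found lay on II. They were II 13144987 to 13145523 (q = 2.03e-14), the strongest arm peak in neither replicate, II 2800781 to 2801277 (q = 9.95e-13) and II 13834172 to 13835059 (q = 4.73e-12). On III, IV and V all 79 arm peaks of that strength were found in a replicate, against 153 of 157 or 97.5% of the centre peaks. Of all 95 arm peaks of that strength, both replicates found 77, or 81.1% (72.0 to 87.7%). In the centres they found 146 of 203, or 71.9% (65.4 to 77.7%). On III, IV and V both replicates found 72 of the 79, or 91.1% (82.8 to 95.6%), against 130 of 157 or 82.8% (76.1 to 87.9%) of their centre peaks. Leaving out II at this q was not a planned setting, and shares of the whole list at this q are not given here.

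The left arm of II was the emptiest of the 8, and each of its 9 peaks was looked at. Besides the peak at 21608, replicate 2 alone found 410869 to 411249 (q = 5.84e-10). The other 7 were in neither replicate. They were 216572 to 216961, 542398 to 542988, 1232846 to 1241917, 1246694 to 1247426, 1320414 to 1320853, 2800781 to 2801277 and 2973641 to 2974265, with q between 9.95e-13 and 2.28e-05. No peak was called over 1479.9 kb between 1320853 and 2800781. The longest such stretch was 1018 kb on the right arm of V, 790.1 kb on the left arm of V, and between 358.2 and 601.8 kb on the other 5 arms. In the centres it was 298 to 503 kb. Only stretches between 2 peaks of the same arm or centre were counted. Stretches that cross an inner edge or reach a chromosome end are left out.

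The right arm of II was as dense as the arms of IV in the combined list, but few of its peaks recurred. Of its 46 peaks, 4 were found in both replicates, 9 in replicate 2 alone and 33 in neither. Those in both were 11841454 to 11846770, 13460455 to 13462671 (q = 1.28e-41), 11335725 to 11338183 (q = 7.93e-38) and 14561536 to 14561909 (q = 1.67e-24). The strongest arm peak in replicate 2 alone, 14404851 to 14408165, also lay here, with a combined q of 7.63e-33 and a replicate 2 q of 4.56e-11. The peak 11633902 to 11637911 had a combined q of 3.21e-26 but a replicate 2 q of 2.06e-05, at rank 587 of 662.

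By their medians, peaks found in both replicates were the strongest and widest on the arms. The median −log10 q was 18.3 for arm peaks found in both replicates, 8.75 for those in replicate 2 alone, 5.65 for the 5 in replicate 1 alone and 5.55 for those in neither. Their median widths were 939, 580, 525 and 542 bp. The 5 arm peaks found in replicate 1 alone lay on the left arm of V (1157379 to 1158815, 1868637 to 1868964 and 3981985 to 3983404) and on the right arm of III (10620955 to 10621479 and 13296243 to 13296718). Their combined q values ran from 6.72e-07 to 1.89e-05. No region of either replicate on the arms lacked a counterpart in the combined list, while 5 centre regions of replicate 1 and 10 of replicate 2 did.

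Among the 93 arm peaks found in both replicates, the replicates ranked q values alike, with Spearman's rho of 0.85 across peaks, and 0.85 over the 155 in the centres. These points share 2 libraries and are not replicates. The −log10 q was higher in replicate 2 for 81 of the 93 arm peaks, with a median ratio of replicate 2 over replicate 1 of 1.27, and for 144 of the 155 centre peaks, with a median ratio of 1.5. It depends on read depth, so the ratio does not measure a difference in binding.

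**Figure D5:**
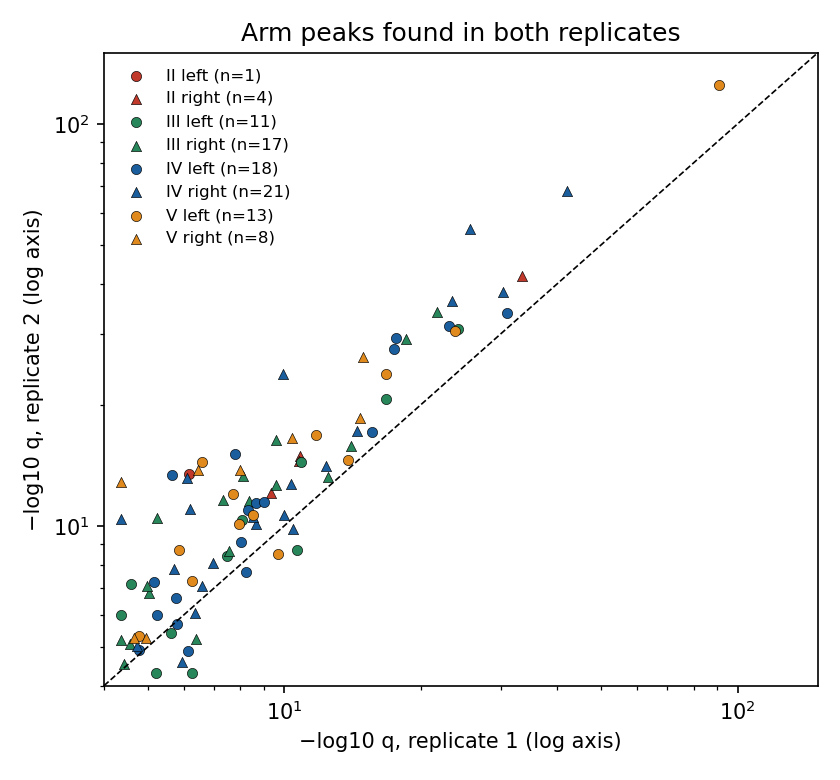
−log10 q in replicate 1 (x axis, log scale) and in replicate 2 (y axis, log scale) for the 93 arm peaks found in both, by chromosome (colour) and side (circles left, triangles right), with the line of equality dashed. Most points, 81 of 93, lie above the line, and the strongest on both axes is the peak of the left arm of V at 723660.

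Where both replicates overlapped the same combined peak, their regions lay close together. That overlap was required here, so it limits how far apart the midpoints can lie. For the 87 arm peaks that matched 1 region in each replicate, the midpoints of the 2 regions were 40 bp apart in the median (interquartile range 20 to 92 bp, at most 890 bp). For 148 centre peaks the median was 58 bp (20 to 157.5 bp). The combined peak was wider than both replicate regions for 70 of the 87, and its median width was 912 bp, against 661 bp for replicate 1 and 768 bp for replicate 2. A replicate split 6 arm peaks into 2 regions, all on right arms. They were IV 16167145, 13392119 and 14091924, V 16778494 and 19519469, and III 10337195, by their starts. Right arms held 50 of the 93 arm peaks found in both replicates. Centre peaks were split as well, 6 of the 155 found in both by each replicate.

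Closeness to other peaks varied between the arms. A neighbour within 5 kb was present for 99 arm peaks, or 37.8% (32.1 to 43.8%), and for 224 centre peaks, or 44.0%, where the whole list had 41.4%. The difference of -6.22 points had an interval of -13.4 to 1.14, which includes 0. It depended on where the arms end and on the chromosomes counted, with -13.0 points for arms of 20% at each end (-20.4 to -4.98), -12.2 without V (-20.2 to -3.84) and -1.69 without III (-9.91 to 6.69). By chromosome it was largest on III, at 21.8% on the arms and 44.9% in the centre (difference -23.1 points, -35.5 to -7.98). The right arm of III had the lowest share, with 4 of 32 peaks, or 12.5%. On V the order was turned round, with 48.1% on the arms and 35.04% in the centre (13.1 points, -2.1 to 28.1). The left arm of V reached 51.4%. A share within a fixed distance also depends on density, which was 7.84 peaks per Mb on the arms and 15.2 in the centres. The part of density in these differences was not tested.

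The 262 peaks formed 203 runs when gaps of up to 5 kb were bridged. Of these, 163 were single peaks, 27 were pairs, 8 held 3 peaks, 4 held 4 and 1 held 5. The run of 5, on the right arm of IV from 13075601 to 13083541, spans 7.94 kb. It has 2 peaks found in both replicates, at 13077688 (q = 3.98e-13) and 13081626 (q = 5.5e-21), and 3 weak ones in neither. The run around the strongest peak of II, from 11836465 to 11846770, spans 10.3 kb and has 3 weaker peaks before the strong one (q = 6.98e-10, 2.66e-11 and 9.35e-06). The peak caller can split 1 signal into several intervals, which also count as neighbours.

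At the rule's edges, the members just inside and the centre peaks just outside are named by their starts. On II they were 2973641 (inside, q = 3.02e-08) and 4047860 (outside, q = 1.11e-11) at the left edge, and 11335725 (q = 7.93e-38) and 11223893 (q = 9.65e-08) at the right edge. On III they were 3377652 (q = 6.28e-05) and 3435123 (q = 3.79e-06) at the left, and 10298200 (q = 4.24e-09) and 10270702 (q = 5.44e-05) at the right. On IV they were 4299863 (q = 2.38e-08) and 4390480 (q = 1.13e-16) at the left, and 13075601 (q = 3.41e-06) and 12724608 (q = 2.06e-07) at the right. On V they were 5049253 (q = 2.45e-28) and 5272226 (q = 7.12e-06) at the left, and 15766189 (q = 1.04e-05) and 15566418 (q = 1.8e-12) at the right.

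At the chromosome ends, the outermost arm peaks differed in support. A peak at each right end follows from the rule, since the largest peak end stood in for the chromosome length. On III and IV that end was from a replicate list, so support at these right ends is not independent of the rule either. The outermost peaks of II left (21608, q = 8.94e-33), III left (62191, q = 2.45e-08), IV right (17277882, q = 3.12e-13), V left (381130, q = 4.81e-22) and V right (20773266, q = 7.72e-15) were found in both replicates. Those of II right (15025335, q = 2.17e-15), III right (13718264, q = 6.94e-05) and IV left (247469, q = 3e-10) were found in replicate 2 alone.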

How the data were processed

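ChIP-seq peak lists were used for 2 ChIP libraries and for a combined call. The build, per the file headers, is WormBase WS180, and PeakSeq is given as the program that called the peaks. The authors deposited 1 q value per interval, a p-value adjusted for multiple testing, which ranks peaks within a list. Larvae were crosslinked in 2% formaldehyde and 10% of the lysate was kept as Input, per the labels' protocols. The sources used here give neither the aligner, nor the settings of the caller, nor the way in which the combined list was made. No file gives read counts, so the depth of each library is unknown.

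The replicate 2 list has 1320 lines and 760 distinct intervals. Overlapping lines were merged into 662 regions with the smallest q value of their lines. Overlap meant at least 1 shared bp. Shares have 95% Wilson intervals, differences of shares Newcombe intervals, and densities exact Poisson intervals. Intervals of medians come from binomial ranks, and were combined for differences in the same way as the Newcombe intervals. No significance test was made over peaks.

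The members and lists were chosen with earlier results of these data known. The named peaks are the 10 strongest arm peaks, the strongest and outermost of each arm, the 3 widest, the strongest by kind of support, those at the rule's edges and 3 of the runs with at least 4 peaks. Some others were chosen after their values were seen: all peaks of the left arm of II, 3 of its right arm, 3 others wider than 5 kb, the split peaks, the other 4 in replicate 1 alone, and 2 with q at most 1e-10 in neither replicate. The comparison of the shares in replicate 1, replicate 2 and replicate 2 alone, of replicate 2 regions shared with replicate 1 and of counts at the centres' rates was also chosen after seeing the data, as was leaving out II for these and the right arm of II for the density along the arms. A planned sum over arms with and without meiotic pairing centres is not reported. No genome or annotation of WS180 was used here, so genes and sequences at the peaks are not named. Interval functions were tested on simulated data. Python 3.11.15, numpy 2.4.6, pandas 2.3.3, SciPy 1.17.1 and matplotlib 3.10.9 were used.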

Additional observations from a re-analysis of the deposited data

How the results depend on the processing

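Of 80 values recomputed with another setting, 73 stayed within the 95% interval of the value reported. The arm share of 34.0% was 24.6% with arms of 20% at each end and 52.3% with each chromosome split into 3 equal parts, which by construction gives the arms less or more sequence. It lay between 31.8% (without replicate 1) and 36.5% (without replicate 2) in single lists. With q at most 1e-10 the difference in median width was -137 bp and that in median −log10 q was 2.35, while the strongest 50% of the list gave -1.08 for −log10 q and leaving out IV gave -0.50. The difference in the share found in a replicate, -3.79 points, was -3.54 without replicate 1 but 4.79 without replicate 2, and it was also above 0 with q at most 1e-10 (2.26) and without II (0.24). In the middle q groups it was -13.5 points with II and -0.095 without it, an alternative chosen after seeing the data. Left minus right, -14.5% of arm peaks (-26.2 to -2.4), was -0.48% without II but -26.0% without V (-38.5 to -12.5), and it was -24.1% by covered base pairs and -5.71% with each chromosome split into 3 equal parts (-15.4 to 4.05). Its interval also included 0 without II, without replicate 1 and without replicate 2. The same held with q at most 1e-10, in the strongest 50% of the list and with arms of 20% at each end. The difference in close neighbours, -6.22 points, ran over all settings from -13.0 to -1.69, and its interval lay below 0 in 5 of them: arms of 20% at each end, 3 equal parts (-11.9), without V (-12.2), neighbours within 2 kb (-7.56) and without replicate 1 (-10.04). Leaving out each replicate gave -12 to 69 bp for width, 0.72 to 0.91 for −log10 q, -13.3 to -10.7% for left minus right and -10.04 to -6.75 points for close neighbours. The share found in both replicates has no value with 1 replicate left out. The cause of these shifts was not tested. No paired analysis was possible because the results come from no test, and arms and centres are compared within single peak lists. Depth is unknown, so peaks absent from a replicate and peaks below its detection limit cannot be told apart.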

Other observations

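The outer parts of the other chromosomes, by the same division, differed from each other. On I the outer parts held 42 peaks, or 5.62 per Mb (4.05 to 7.6), and the central 50% held 90, or 12.04 per Mb (9.68 to 14.8). On X they held 115, or 13.01 per Mb (10.7 to 15.6), and the central 50% held 119, or 13.5 per Mb (11.2 to 16.1). Of these outer peaks, 42.9% on I and 67.8% on X were found in at least 1 replicate, against 57.9% of the whole list. Both replicates found 44.3% of the outer and 27.7% of the central peaks of X. On I these shares were 23.8% and 25.6%, against 32.1% of the whole list.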
